A study of Mus musculus with 2 samples.

Results

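Glucuronidation and sulfonation are among the conjugation reactions of liver. They make bilirubin, steroids, bile acids, thyroid hormones and drugs water-soluble enough to leave in bile or urine. UDP-glucuronosyltransferases (UGTs, genes named Ugt) sit in the endoplasmic reticulum and transfer a sugar from a UDP-sugar, in most cases glucuronic acid. Cytosolic sulfotransferases (SULTs, genes named Sult) transfer a sulfonate group from the activated sulfate donor PAPS. The genes described here were all rows of the deposited table whose symbol was Ugt or Sult followed by a digit. There were 39 among 36771 rows, 21 UGT and 18 SULT genes, and no member symbol was repeated.

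The study sequenced liver RNA from 5-month-old BALB/c mice, as 1 SRSF2-KO-labelled library, genotype SRSF2-/- and, by the design text, with the deletion restricted to liver, and 1 WT-labelled library. Srsf2 codes for an SR protein that guides splice site choice, and the labels name neither the deleted part of the gene nor what drove the deletion. With 1 library per genotype no difference below has a replicate check, none was tested, and each is a difference between these libraries. The authors deposited FPKM (fragments scaled to transcript length and library depth). From the whole-read steps of low values the depth was estimated as 24200000 fragments (SRSF2-KO) and 19400000 (WT). Srsf2 stood at 45.3 FPKM in the SRSF2-KO-labelled library, against 38.2 FPKM in the WT-labelled library, so its level was not lower in the library labelled as its knockout. A value for the whole gene cannot show whether a part of it was deleted. The label could not be checked further, and each direction below is between libraries as labelled. Nothing in the labels says whether a library held 1 animal or a pool. Liver markers were present, with Apoa1 at 8305 (SRSF2-KO) and 10936 FPKM (WT) and Hnf4a at 100.1 (SRSF2-KO) and 133 FPKM (WT), but albumin (Alb) was listed at 0 in both. A 0 in this table can therefore be a failed estimate, and members at 0 are described as listed at 0.

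The sequences below show why single members of the Ugt1a locus on chromosome 1 must be read with care. Ugt1a enzymes differ in their first exon, which sets their substrates, and it is spliced to a set of exons that all Ugt1a transcripts share. The lines give the junction, from GENCODE M21 transcripts, with the 24 bases before the shared exons in lower case and the first 24 bases of the shared exons in capitals.
Ugt1a1: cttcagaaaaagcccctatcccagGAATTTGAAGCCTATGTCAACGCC
Ugt1a5: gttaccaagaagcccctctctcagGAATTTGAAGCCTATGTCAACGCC
Ugt1a6a: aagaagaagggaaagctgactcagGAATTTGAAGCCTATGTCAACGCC
Ugt1a9: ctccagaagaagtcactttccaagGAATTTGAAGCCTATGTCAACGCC
The capitals are the same in all 4 lines, and the lower-case stretch differs between these lines. It does not tell every member apart, since that of Ugt1a5 is the same in Ugt1a2 and that of Ugt1a6a the same in Ugt1a6b and Ugt1a7c. Of the 50-base windows of the Ugt1a1 transcript, 58.2% also occur in another gene's transcript. For Ugt1a5 the share was 64.0%, for Ugt1a9 62.0%, for Ugt1a6b 80.7% and for Ugt1a7c 69.3%, whereas every window of Ugt1a6a (100%) also occurs elsewhere, under Ugt1a7c. Each share is for the longest protein-coding transcript of the gene. That of Ugt1a7c has the same junction as Ugt1a6a, so 69.3% and 100% describe these transcripts and not every transcript of these genes. Reads from shared windows cannot be assigned to 1 member by sequence, and how the authors' program divided them is not given in the sources used here.

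Of the 39 members, 23 reached at least 1 FPKM in at least 1 library (16 UGT and 7 SULT genes), called measured below. Another 8 were above 0 but below that level, at up to 0.476 FPKM, and 8 were listed at 0 in both libraries. The measured member with the lowest maximum was Sult1e1 at 1.90 FPKM and the unmeasured member with the highest was Ugt1a10 at 0.476 FPKM. The log2 ratio given throughout has 1 added to both FPKM values, as log2((SRSF2-KO + 1)/(WT + 1)). Values below 0 mark a lower level in the SRSF2-KO-labelled library. The pseudocount of 1 shrinks the ratios of scarce genes. Of the 23 measured members, 8 were at least 2-fold lower and 3 at least 2-fold higher in the SRSF2-KO-labelled library, and 19 had a log2 ratio below 0. Over all 11428 measured rows of the table, 3.22% were at least 2-fold lower and 5.49% at least 2-fold higher, and 6162 had a log2 ratio below 0. For 4 members measured in 1 library only, the filter fixed the sign of the ratio, so the 19 that reached 1 FPKM in each library are the fairer basis. Of these, 6 were lower and 1 higher, against 2.86% and 3.17% of 10198 rows. Below 0 were 17 of these 19 members and 5832 of the 10198 rows. Of the 17 members that reached 5 FPKM in at least 1 library, 6 were lower and 0 higher, against 4.3% and 5.23% of 7003 rows. Below 0 were 16 of these 17 members and 4416 of the 7003 rows. The median log2 ratio was -0.40 over UGT members and -0.89 over SULT members, beside -0.04 over all measured rows.

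These counts depended on scaling, since the deposited FPKM sum to 523254 in the SRSF2-KO-labelled library and 666262 in the WT-labelled library. After rescaling to a common total (TPM) 2 members remained at least 2-fold lower, Sult5a1 and Sult2a7. Both had reached 1 FPKM in the WT-labelled library only. Under TPM and with the pseudocount of 1, no member measured in both libraries was therefore at least 2-fold lower. The nearest were Ugt1a7c and Ugt1a1, both at -0.95, and the pseudocount shrinks the ratio of the scarce Ugt1a7c. When the sums without the 50 highest rows were made equal there were 3 lower members, the third being Ugt1a1. Of all rows, 1.91% were at least 2-fold lower and 10.8% higher under TPM, and 1.93% and 8.27% with equal sums. Under both, 3 of the 23 members were higher, of which Ugt2b37 and Sult1e1 had reached 1 FPKM in the SRSF2-KO-labelled library only. These rescalings moved the median of all rows up to 0.28 and 0.21, and under TPM 15 of the 23 members, not 19, had a log2 ratio below 0. Taken relative to the median of all rows, 8 members were at least 2-fold lower under the deposited scale and under each of 3 rescalings, beside 2.98% to 3.47% of all rows. On that basis 5 of the 19 members measured in both libraries were lower (2.44% of rows) and 4 of the 17 that reached 5 FPKM (3.27%). The UGT median lay 0.36 log2 units below that of all rows on the deposited scale and 0.34 below it under TPM, and the SULT median 0.85 and 0.82 below. A rescaling shifts nearly all log2 ratios alike, and taking off the median of all rows removes most of that shift. Alike relative values across scalings were therefore largely fixed in advance and are no separate check.

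**Figure D1:**
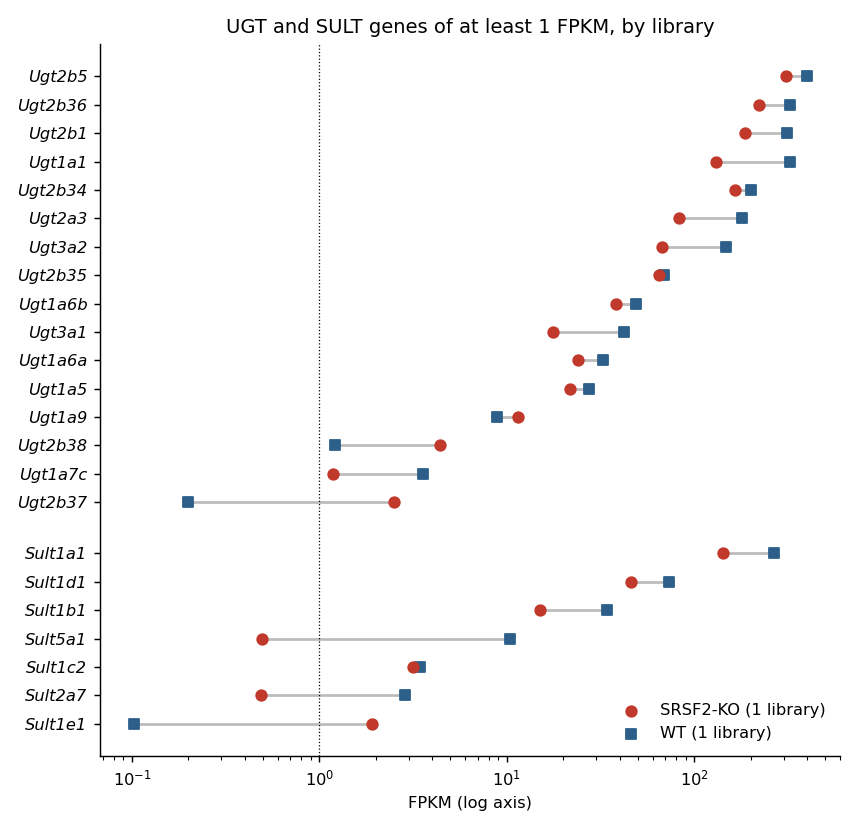
FPKM of the 23 measured members (log axis) in the SRSF2-KO-labelled library (circles) and the WT-labelled library (squares), 1 library each, with UGT genes above SULT genes, ordered by mean level; the dotted line marks 1 FPKM. In 19 members the circle lies left of the square, and the long lines pointing the other way belong to Ugt2b37, Ugt2b38 and Sult1e1.

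Bilirubin conjugation rests on Ugt1a1, the enzyme whose loss causes unconjugated jaundice. Ugt1a1 stood at 131 FPKM in the SRSF2-KO-labelled library and 323 FPKM in the WT-labelled library, a ratio of 0.405, whose exact Clopper-Pearson 95% interval was 0.393 to 0.417. Such intervals cover counting error only and neither animal-to-animal spread nor the assignment of shared reads. Its log2 ratio of -1.30 had 191 of the 11428 measured rows below it.

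Of the other Ugt1a members, those above 5 FPKM were all within 2-fold. Ugt1a6b and Ugt1a6a, which conjugate small planar phenols, stood at 38.1 and 23.9 FPKM in the SRSF2-KO-labelled library, against 48.6 and 32.4 FPKM in the WT-labelled library. Ugt1a5 was at 21.8 against 27.5 FPKM. Ugt1a9, another phenol-conjugating enzyme, was the single measured Ugt1a member on the higher side, with 11.5 against 8.88 FPKM and a ratio of 1.30 (interval 1.13 to 1.49). At the low end of the locus, Ugt1a7c was at 1.19 against 3.55 FPKM, a ratio of 0.334 (interval 0.258 to 0.431). Below 1 FPKM in both libraries lay Ugt1a10 (0.259 against 0.476 FPKM), Ugt1a2 (0.301 against 0.0628 FPKM) and Ugt1a8 (0.0782 FPKM against a value listed at 0). Under the TPM rescaling Ugt1a5 stood at a log2 ratio of 0.02, on the higher side.

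Summed over the 9 Ugt1a members, the level was 228 FPKM in the SRSF2-KO-labelled library and 444 FPKM in the WT-labelled library. Ugt1a1 made up 57.3% of that sum in the SRSF2-KO-labelled library and 72.6% in the WT-labelled library. Without Ugt1a1 the sums were 97.2 and 122 FPKM, in that order. The share does not depend on how the libraries were scaled, but it does depend on the division of shared reads.

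**Figure D2:**
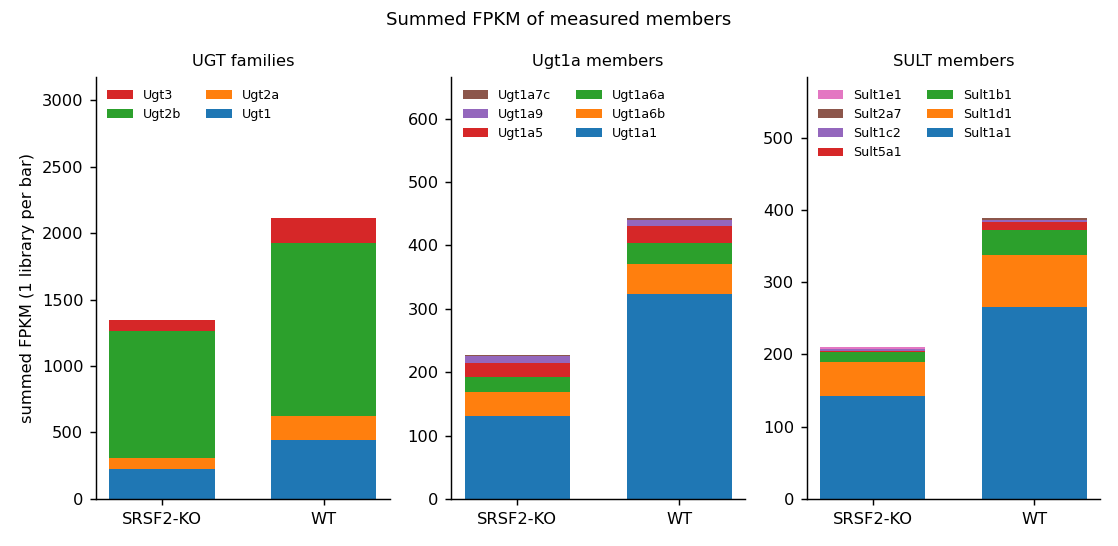
Summed FPKM of measured members (vertical axis, from 0) in the SRSF2-KO-labelled library (left bar of each panel) and the WT-labelled library (right bar), split by UGT family, by Ugt1a member and by SULT member. Each bar is 1 library. The left bar is lower in all 3 panels, as was the sum over all measured rows, 521634 FPKM (SRSF2-KO) against 665008 FPKM (WT). Ugt1a1 is the largest segment of the Ugt1a bars, 131 FPKM (SRSF2-KO) and 323 FPKM (WT).

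The Ugt2b enzymes, which conjugate steroids, bile acids and many drugs, included the most abundant UGT transcripts of both libraries. Ugt2b5 had the highest level of all members in both libraries, with 309 FPKM in the SRSF2-KO-labelled library and 399 FPKM in the WT-labelled library. Within the Ugt2b family, Ugt2b36 followed with 221 against 323 FPKM and Ugt2b1 with 186 against 311 FPKM. The levels of Ugt2b34 were 164 and 199.9 FPKM, and those of Ugt2b35 were 64.6 and 69.4 FPKM. None of these 5 was 2-fold apart, with log2 ratios from -0.74 for Ugt2b1 to -0.10 for Ugt2b35, and under the TPM rescaling those of Ugt2b34 and Ugt2b35 were above 0 (0.06 and 0.24), as was the family median (0.06). The Ugt2b sum was 951 FPKM in the SRSF2-KO-labelled library and 1303 FPKM in the WT-labelled library, a ratio of 0.730. The same ratio was 0.512 for the measured Ugt1a members and 0.784 for the sum over all measured rows.

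The remaining Ugt2b genes, both scarce, went the other way. Ugt2b38 stood at 4.39 FPKM in the SRSF2-KO-labelled library and 1.21 FPKM in the WT-labelled library, and Ugt2b37 at 2.49 against 0.1996 FPKM. The ratio was 3.64 for Ugt2b38 (interval 2.59 to 5.30) and 12.5 for Ugt2b37 (5.58 to 30.4). Both are scarce beside an abundant relative with which they share sequence: 34.1% of the 50-base windows of the Ugt2b38 transcript and 15.2% of those of Ugt2b37 also occur in Ugt2b5.

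The start regions of these genes are also alike, and they are shown because the scarce pair, on the higher side, resembles the abundant Ugt2b5, on the lower side. Each line is the RefSeq window from 250 bases before to 50 after the annotated start, in build GRCm38.p6, on the minus strand of chromosome 5. The windows are chr5:87424154-87424453 for Ugt2b38, chr5:87254739-87255038 for Ugt2b37 and chr5:87140291-87140590 for Ugt2b5. Capitals mark bases that differ from Ugt2b38 or have no partner in it when aligned end to end.
Ugt2b38: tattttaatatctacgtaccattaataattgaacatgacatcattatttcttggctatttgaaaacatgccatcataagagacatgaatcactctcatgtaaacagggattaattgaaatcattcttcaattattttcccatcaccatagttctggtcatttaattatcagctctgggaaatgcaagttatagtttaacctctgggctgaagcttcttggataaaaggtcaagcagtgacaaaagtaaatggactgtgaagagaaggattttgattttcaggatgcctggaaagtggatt
Ugt2b37: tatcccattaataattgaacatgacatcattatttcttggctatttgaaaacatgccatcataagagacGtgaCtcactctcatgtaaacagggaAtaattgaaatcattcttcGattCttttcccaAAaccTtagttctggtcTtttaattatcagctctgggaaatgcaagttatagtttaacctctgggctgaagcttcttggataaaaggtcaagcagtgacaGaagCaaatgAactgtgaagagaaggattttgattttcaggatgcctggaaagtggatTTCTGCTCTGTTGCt
Ugt2b5: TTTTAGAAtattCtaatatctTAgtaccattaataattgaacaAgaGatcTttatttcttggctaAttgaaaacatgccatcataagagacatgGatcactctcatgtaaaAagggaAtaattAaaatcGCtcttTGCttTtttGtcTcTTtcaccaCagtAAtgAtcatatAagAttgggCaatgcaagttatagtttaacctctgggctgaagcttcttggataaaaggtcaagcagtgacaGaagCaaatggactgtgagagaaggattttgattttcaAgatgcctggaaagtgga
Identity to Ugt2b38 over the alignment, gaps included, was 87.3% for Ugt2b37 and 84.2% for Ugt2b5. Ugt2b37 and Ugt2b5 were 76.5% identical. Ugt2b5, with the closely related window, stood at 309 against 399 FPKM while Ugt2b38 and Ugt2b37 were on the higher side.

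RefSeq windows of this kind were held for 33 of the 39 members, 35 windows in all, and were searched on both strands for 4 motifs. GCGTG, the core bound by the dioxin receptor AhR, was in 7 of the 35 member windows and in 32.4% of all 32851 windows. No member window held TGACNNNGC (the NRF2 element, in 12.4% of all windows), the palindromic HNF1 site or the direct repeat with a spacer of NNNN that CAR and PXR bind. The HNF1 site occurred in 0.00913% and the repeat in 0.0152% of all windows. These matches describe letters in a short window only.

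Ugt2a3, whose human counterpart conjugates bile acids, was at 83.2 FPKM in the SRSF2-KO-labelled library and 180.2 FPKM in the WT-labelled library, a ratio of 0.462 (interval 0.444 to 0.480). Ugt2a1, an olfactory enzyme, was listed at 0 in both. The Ugt3 enzymes use other sugars than glucuronic acid, as known for the human proteins. Ugt3a2 stood at 67.1 against 147 FPKM and Ugt3a1 at 17.7 against 41.97 FPKM, with ratios of 0.455 and 0.423. Both Ugt3 genes and Ugt2a3 were thus lower by a similar factor, and all 3 had log2 ratios between -0.76 and -0.87 under the TPM rescaling. Ugt8a, which builds galactosylceramide of myelin, was at 0.0129 and 0.0802 FPKM, in the order SRSF2-KO and WT.

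**Figure D3:**
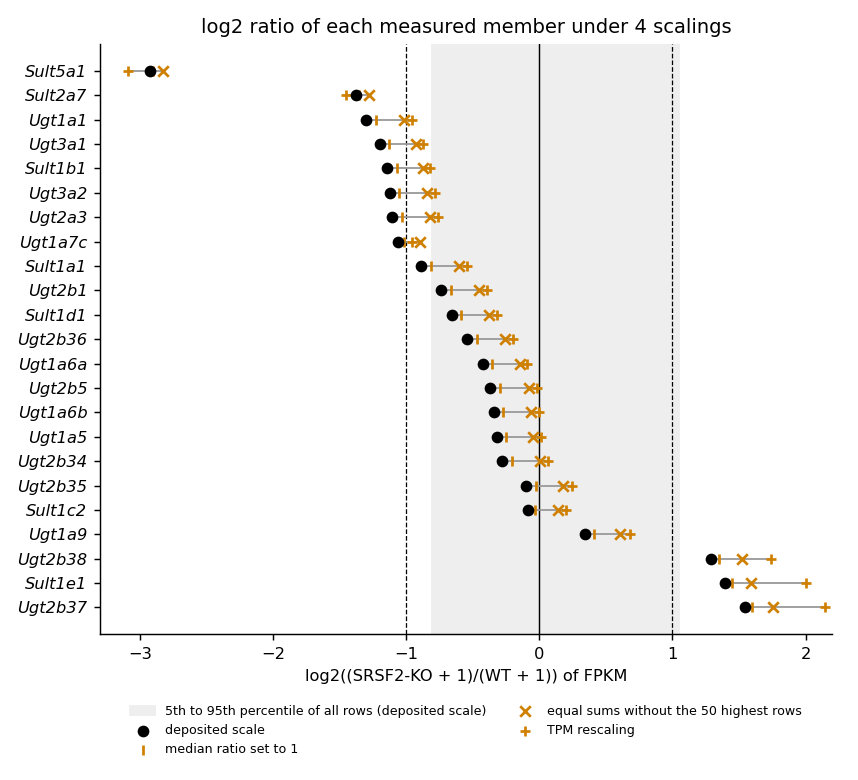
log2 ratio of FPKM, SRSF2-KO-labelled library over WT-labelled library, for each measured member on the deposited scale (black) and under 3 rescalings (orange marks), with dashed lines at 2-fold and the grey band from the 5th to the 95th percentile of all measured rows on the deposited scale (-0.80 to 1.05). Sult5a1 lies at -2.93, and Ugt2b37, Sult1e1 and Ugt2b38 lie above 1 under every scaling drawn.

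Among sulfotransferases, Sult1a1, the main phenol sulfotransferase, was the most abundant member. It stood at 143 FPKM in the SRSF2-KO-labelled library and 265 FPKM in the WT-labelled library, a ratio of 0.540 (interval 0.518 to 0.562). Sult1d1, which acts on catecholamines in mouse, was at 45.9 against 73.1 FPKM. Sult1b1, which acts on thyroid hormones and phenols, was at 15.0 against 34.3 FPKM and was the single Sult1 member at least 2-fold lower. Sult1c2 differed little, with 3.17 against 3.43 FPKM, its interval of 0.717 to 1.21 spans a ratio of 1, and under TPM its log2 ratio was 0.20. Sult1a1 held 68.0% of the summed SULT level in the SRSF2-KO-labelled library and 68.1% in the WT-labelled library, so the sum, at 210.2 and 389 FPKM, was lower with that share alike.

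Sult5a1 had the lowest log2 ratio of all members, -2.93, with 27 of the 11428 measured rows below it. It stood at 0.495 FPKM in the SRSF2-KO-labelled library and 10.4 FPKM in the WT-labelled library, 21.0-fold lower (ratio 0.0477, interval 0.0302 to 0.0708). Of its 50-base windows, 1.36% occur in another gene's transcript. Sult5a1 was the single member at least 2-fold lower with each of 3 pseudocounts and under each of 3 rescalings, but it falls out where 1 FPKM is asked of both libraries.

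Sult1e1, the estrogen sulfotransferase, lay on the other side from its Sult1 relatives. It was at 1.90 FPKM in the SRSF2-KO-labelled library and 0.102 FPKM in the WT-labelled library. The WT value is worth about 2.13 reads, so the ratio of 18.6 has a wide interval of 5.15 to 167. None of its 50-base windows occur in another gene.

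The Sult2 family sulfonates hydroxysteroids and bile acids. Of its Sult2a members in the table, 6 of 7 (Sult2a1 to Sult2a6) were listed at 0 in both libraries, and Sult2a7 stood at 0.486 FPKM in the SRSF2-KO-labelled library and 2.86 FPKM in the WT-labelled library, a ratio of 0.170 (interval 0.0648 to 0.347). The most abundant sulfotransferase row carried an older symbol and was outside the naming rule: 2810007J24Rik, which RefSeq lists as Sult2a8, a bile acid sulfotransferase of mouse liver. It was at 162 FPKM in the SRSF2-KO-labelled library and 538 FPKM in the WT-labelled library, a ratio of 0.300 (interval 0.286 to 0.315) and a log2 ratio of -1.73. With it the sulfotransferase sum was 372 against 928 FPKM. RefSeq lists Sult2a8 and Sult2a7 as neighbours on chromosome 7, and neither shares a 50-base window with another gene. The cholesterol sulfotransferase Sult2b1 was at 0.156 FPKM in the SRSF2-KO-labelled library and listed at 0 in the WT-labelled library. Sult3a1, typical of female mouse liver, was listed at 0 in the SRSF2-KO-labelled library and at 0.0673 FPKM in the WT-labelled library. Both held Y-linked transcripts (Ddx3y at 9.21 against 10.6 FPKM) and little Xist (0.00500 against 0.00630 FPKM). The last members, Sult4a1 of brain (0.0345 FPKM in the SRSF2-KO-labelled library) and Sult6b1 (0.0232 FPKM there), were listed at 0 in the WT-labelled library, and Sult1c1 was listed at 0 in both.

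The 3 members at least 2-fold higher all lie on chromosome 5, where the Ugt2 genes are followed by Sult1b1, Sult1d1 and Sult1e1. Of the 11 measured members there, 3 were higher, 2 lower and the rest within 2-fold. In RefSeq order the log2 ratio was 1.54 for Ugt2b37, -1.11 for the next member, Ugt2a3, and 1.29 for the one after it, Ugt2b38. At the end of this order, Sult1b1 was at -1.14, Sult1d1 at -0.66 and Sult1e1 at 1.40. Members next to each other in this order thus stood on opposite sides. Ugt2b37 and Sult1e1 reached 1 FPKM in the SRSF2-KO-labelled library only, so that filter fixed the sign of their log2 ratios. Ugt2b38 was the 1 higher member measured in both libraries. Elsewhere, the 6 measured members on chromosome 1 included 2 lower and 0 higher, and both on chromosome 15 were lower.

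**Figure D4:**
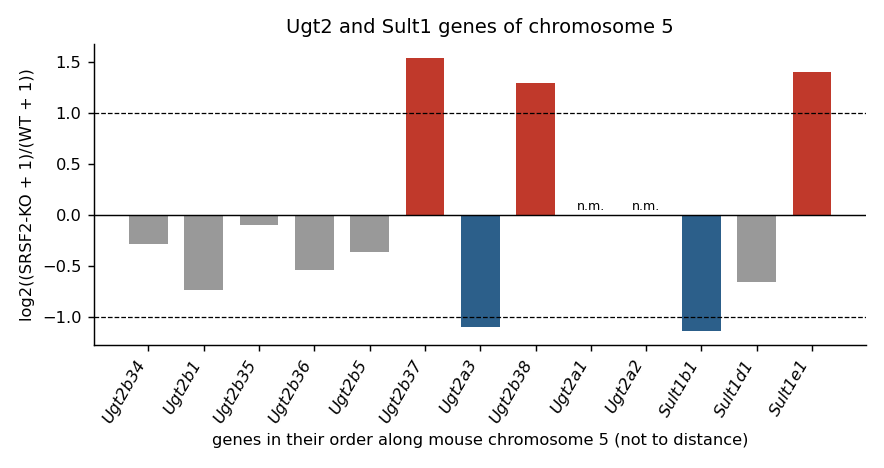
log2 ratio (SRSF2-KO-labelled library over WT-labelled library) of the Ugt2 and Sult1 genes in their order along chromosome 5, evenly spaced; red bars are at least 2-fold higher, blue at least 2-fold lower, grey within 2-fold, and n.m. marks genes not measured. Bars of opposite sign stand next to each other at Ugt2b37, Ugt2a3 and Ugt2b38.

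Genes that supply the sugar donor were not lower as a group. Of 9 genes of UDP-glucuronic acid supply, all measured, 6 had log2 ratios above 0, 0 were 2-fold apart (2 were higher under TPM) and the median was 0.27. That median is the value of Hk1, which reached 1 FPKM in the SRSF2-KO-labelled library only (1.02 against 0.672 FPKM). The filter thus fixed the sign of its ratio. Ugdh, the dehydrogenase that makes UDP-glucuronic acid, stood at 216 FPKM in the SRSF2-KO-labelled library and 119.7 FPKM in the WT-labelled library. Ugp2, which makes UDP-glucose, was at 128 against 222 FPKM, and the phosphoglucomutase gene Pgm2 at 57.7 against 95.9 FPKM. Smaller log2 ratios were 0.33 for Pgm1, 0.27 for Hk1 (hexokinase), 0.11 for Slc35d1, which carries UDP-sugars into the endoplasmic reticulum, and -0.07 for Nudt14.

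Sulfate donor genes were mostly on the lower side by small amounts. Of 13 genes of PAPS supply, 10 were measured, 8 of them below 0, with a median of -0.39 (-0.07 under TPM, 5 of 10 below 0). Among all 11428 measured rows, 6162 were below 0 on the deposited scale. Papss2, the main PAPS synthase of liver, stood at 50.5 FPKM in the SRSF2-KO-labelled library and 71.1 FPKM in the WT-labelled library, and Papss1 at 3.88 against 2.64 FPKM. The list's extremes were Cdo1, which oxidises cysteine (811 against 1381 FPKM), Bpnt1, which clears the spent donor (19.5 against 30.03 FPKM), and on the higher side Csad of taurine synthesis (59.8 against 18.1 FPKM).

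Genes that remove or export conjugates went both ways. Gusb, the beta-glucuronidase, was at 11.3 FPKM in the SRSF2-KO-labelled library and 10.1 FPKM in the WT-labelled library, and the sulfatase genes Arsa, Arsb and Arsk and the sulfatase activator Sumf1 had log2 ratios from -0.14 to 0.16. The carboxylesterase genes of the same list, which cleave esters, were lower, Ces1d at 216 against 851 FPKM and Ces1g at 94.9 against 115 FPKM. The list's median was -0.02 over 7 genes (0.31 under TPM), and 1 of them was at least 2-fold lower. Of 12 measured transporters, 3 were at least 2-fold lower and 1 higher, with a median of -0.49 (-0.16 under TPM, with 2 lower and 2 higher). The shares lower and higher over all measured rows were 3.22% and 5.49% on the deposited scale. Abcc2, which exports bilirubin glucuronide into bile, stood at 79.7 against 124 FPKM and Abcc3, its counterpart toward blood, at 50.9 against 73.7 FPKM. The extremes were the uptake carriers Slco1a1 and Slco1a4 at log2 ratios of -2.36 and -1.47 and, on the other side, Ostb at 2.17 and Abcc5 at 0.86. Ostb (6.47 against 0.658 FPKM), the 1 higher gene, and Abcc4 (1.08 against 0.401 FPKM) reached 1 FPKM in the SRSF2-KO-labelled library only. The filter thus fixed the sign of both ratios.

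Most genes for proteins that regulate conjugation genes were on the lower side on the deposited scale. Of 21 such regulators, all measured, 15 were below 0 and 2 of these at least 2-fold lower, with a median of -0.33 (-0.01 under TPM, with 11 below 0 and 0 at least 2-fold lower). Among all 11428 measured rows, 6162 were below 0 and 3.22% at least 2-fold lower on the deposited scale. Nr1i3, which codes for CAR, stood at 30.1 FPKM in the SRSF2-KO-labelled library and 61.9 FPKM in the WT-labelled library, and Ppara had the lowest log2 ratio at -1.32. Nfe2l2 (NRF2) was highest at 39.5 against 30.2 FPKM, followed by Arnt at 8.41 against 7.69 FPKM. Ahr itself was at 8.02 against 8.78 FPKM. Of 8 measured CAR and PXR targets 6 were at least 2-fold lower, with a median of -1.49 (-1.14 and 5 lower under TPM): Cyp2b9 (-4.20), Cyp2b10 (-3.06), Por (-1.63), Cyp3a25 (-1.60), Aldh1a1 (-1.37) and Cyp2c55 (-1.16). Cyp3a11 was at -0.59 and Gadd45b at 0.55. Cyp2b9 reached 1 FPKM in the WT-labelled library only and Gadd45b in the SRSF2-KO-labelled library only. The 3 measured AhR targets were within 2-fold, Cyp1a2 at -0.71, Tiparp at -0.68 and Nqo1 at 0.69, though Nqo1 was at 1.05 under TPM.

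**Figure D5:**
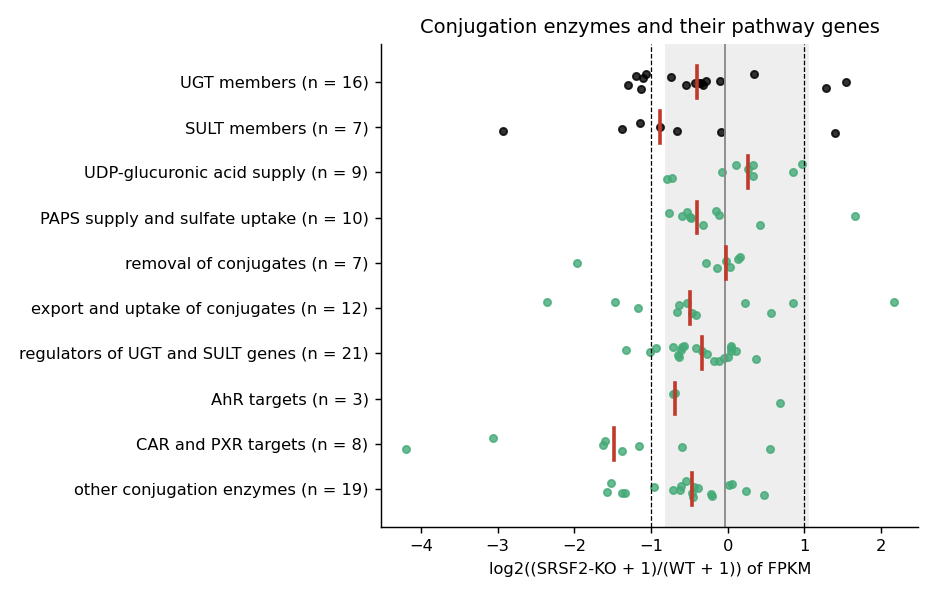
log2 ratio (SRSF2-KO-labelled library over WT-labelled library) of the measured genes of each list, 1 dot per gene with random vertical spread, red bars for list medians, dashed lines at 2-fold, a grey line for the median and a grey band for the 5th to 95th percentile of all measured rows. The medians are -0.40 for UGT members, -0.89 for SULT members, 0.27 for UDP-glucuronic acid supply and -1.49 for CAR and PXR targets.

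Other xenobiotic enzymes, chosen by symbol, differed in direction, beside a median of -0.54 over the 23 measured UGT and SULT genes. The 37 measured Cyp1, Cyp2 and Cyp3 rows had a median log2 ratio of -0.81 (-0.48 under TPM), with 15 at least 2-fold lower and 0 higher (13 and 2 under TPM). Of the 32 that reached 1 FPKM in both libraries, 12 were lower and 0 higher. The 11 measured glutathione transferases of the alpha, mu and pi classes had a median of 0.54 (0.89 under TPM), with 3 at least 2-fold higher and 0 lower (4 and 0 under TPM). Among all measured rows, 3.22% were at least 2-fold lower and 5.49% higher (1.91% and 10.8% under TPM). In the same libraries, markers of other cell types differed too, and in bulk RNA fewer cells of a type and less RNA per cell cannot be told apart. All 8 measured hepatocyte markers were below 0, 5 of them also under TPM (median -0.38, summed 19538 FPKM in the SRSF2-KO-labelled library and 26855 FPKM in the WT-labelled library, Alb listed at 0). Of the bile duct markers 8 of 13 were measured, 7 of them above 0 (median 0.96, summed 358 against 60.4 FPKM). Spp1 alone gave 266 against 21.9 FPKM, the sums without it were 92.3 and 38.6 FPKM, and the duct keratin gene Krt19 lay on the other side at 0.426 against 1.10 FPKM. Of the stellate and matrix markers 14 of 15 were measured, 13 of them above 0 (median 0.93, summed 229 against 115 FPKM, and 102 against 32.2 FPKM without Dcn). Of these, Col1a1, Pdgfrb, Timp1 and Col5a1 reached 1 FPKM in the SRSF2-KO-labelled library only, as did Tspan8 among the bile duct markers. Krt19 did so in the WT-labelled library only, and the filter fixed the sign of all these ratios. All 14 sinusoidal endothelial markers were below 0 (median -0.93, summed 75.1 against 173 FPKM). Their part in the differences of the conjugation genes was not tested. Of 10 kidney tubule markers 0 were measured, and 7 were listed at 0 in both libraries. Of 10 small intestine markers 3 were measured, Fabp2 at 26.6 against 65.4 FPKM, Anpep at 32.6 against 45.5 FPKM and Lgr5 at 1.31 against 1.92 FPKM, all of which liver expresses too, and 6 were listed at 0 in both.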

How the data were processed

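The authors deposited 1 table of FPKM, already scaled to transcript length and mapped fragments, with 1 column per library. Per the submitters' processing notes, Bowtie 0.12.2 and mm9 were used. Which program estimated FPKM, with what annotation and strand setting, is not given in the sources used here. Columns KO and WT were matched to libraries by title. Ratios used a pseudocount of 1 FPKM over rows reaching 1 FPKM in either library, and 2-fold was the size rule. No test was run. Fragments per library were fitted with 1 length offset (170 bases) so that low values of genes having 1 GENCODE M21 transcript (1000 to 8000 bases) fell on whole reads. Of values worth under 3.5 reads, 71.6% of 472 (SRSF2-KO) and 75.2% of 436 (WT) fell within 0.1 reads of a whole number. Reads per gene used the median protein-coding transcript length and gave Clopper-Pearson (exact) 95% intervals, for counting error only. Lengths and shared windows come from another build than the files'. Every measured member is named, with every measured gene of pathway lists of up to 10 symbols and the 2 highest and 2 lowest of longer ones, except a few genes not reported here; others were chosen after their values were seen. The members and lists were chosen with earlier results of these data known. The depth fit and the calls were tested on simulated data. Alternatives were 2 pseudocounts, 3 filters, 3 rescalings, summed repeated symbols and members under older names, the last chosen after seeing the data. Analyses used Python 3.11.15, numpy 2.4.6, pandas 2.3.3 and scipy 1.17.1.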

Additional observations from a re-analysis of the deposited data

How the results depend on the processing

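The count of members at least 2-fold higher, 3 on the deposited scale, was 0 with a pseudocount of 3 and at a minimum of 5 FPKM, and 1 among members measured in both libraries. The count at least 2-fold lower, 8, was 2 under TPM rescaling and 3 with equal sums without the 50 highest rows, and between 6 and 9 otherwise. The UGT median of -0.40 was -0.38 with a pseudocount of 3, -0.33 without a filter, -0.42 at 5 FPKM and among members measured in both libraries, -0.0541 under TPM, -0.11 with equal sums and -0.32 with the median ratio set to 1. The SULT median of -0.89 was -0.75 with a pseudocount of 3, -0.0939 without a filter (members near 0 enter), -1.01 at 5 FPKM, -0.77 among members measured in both libraries, -0.54 under TPM, -0.60 with equal sums, -0.81 with the median ratio set to 1 and -1.01 with rows under older names. Of 23 measured members, 15 stayed below 0 and 4 above 0 with the 3 pseudocounts and 3 rescalings, the settings that can change a single gene's ratio, while Sult1c2, Ugt1a5, Ugt2b34 and Ugt2b35 changed sign under TPM. No paired analysis was possible because each genotype has 1 library. Depth limits Sult1e1 and Ugt2b37, whose WT values are worth about 2.13 and 6.68 reads, and shared sequence limits every Ugt1a value.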

Other observations

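Conjugation enzymes outside the UGT and SULT families were on the lower side in 15 of 19 measured genes of a list of 20, with a median log2 ratio of -0.47 (13 of 19 and -0.15 under TPM), 4 at least 2-fold lower and 0 higher. Among all 11428 measured rows, 6162 were on the lower side, 3.22% at least 2-fold lower and 5.49% higher on the deposited scale. The lowest were the methyltransferase Inmt, at 196 FPKM in the SRSF2-KO-labelled library and 588 FPKM in the WT-labelled library, and Gm4952, related to glycine N-acyltransferases, at 23.5 against 69.1 FPKM. The highest was the arsenic methyltransferase As3mt, at 18.9 against 13.4 FPKM. Baat, which joins bile acids to taurine, stood at 84.4 against 114.5 FPKM.

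Sex-biased genes of mouse liver lay on both sides. Of 7 measured female-biased genes of a list of 18, 5 were lower by at least 2-fold, with Cyp2b9 (0.0490 FPKM in the SRSF2-KO-labelled library, against 18.3 FPKM in the WT-labelled library) and Acot3 (0.302 against 8.56 FPKM) lowest and Rtn4 (52.7 against 31.6 FPKM) and Cyp2a4 (10.4 against 6.24 FPKM) highest. Cyp2b9, Acot3 and Cyp2a22, all among the lower genes, reached 1 FPKM in the WT-labelled library only, which fixed the sign of their ratios. Cyp2b9 is also counted among the CAR and PXR targets. Over all measured rows, 3.22% were at least 2-fold lower and 5.49% at least 2-fold higher. Of 19 measured male-biased genes of a list of 20, 5 were at least 2-fold lower and 4 at least 2-fold higher, with Mup7 at -3.26 and Susd4 at -2.57 lowest and Mup20 at 1.71 and Selenbp2 at 1.60 highest on the log2 ratio scale. The Mup genes are near-identical copies, so their single values are uncertain. All 4 measured Y-linked genes had log2 ratios between -0.21 and -0.01, and above 0 under TPM.

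Among the remaining marker lists, the Kupffer cell and macrophage genes went both ways, with 5 of 13 at least 2-fold higher (Trem2 at 2.16, Gpnmb at 2.11 and Cd14 at 1.98 highest), 3 lower (Timd4 at -1.47, Cd5l at -1.14 and Clec4f at -1.14) and a median of -0.13 (0.17 under TPM). Of these, Trem2, Gpnmb and Ccr2, all among the higher genes, reached 1 FPKM in the SRSF2-KO-labelled library only. Timd4 did so in the WT-labelled library only, and the filter fixed the sign of all these ratios. The median was 1.28 over 5 of 14 lymphocyte and neutrophil genes and -0.73 over 5 of 8 erythroid genes. Cd3g and Ltb of the lymphocyte list reached 1 FPKM in the SRSF2-KO-labelled library only, which fixed the sign of their ratios. Of 10 olfactory and brain genes 1 was measured, Syt1 at 3.42 FPKM in the SRSF2-KO-labelled library and 4.41 FPKM in the WT-labelled library. The genes of these lists were not used in any comparison of the conjugation enzymes.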
